A study of Sus scrofa with 24 samples.

Results

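The genes described here code for beta subunits of the sodium and potassium pump of the plasma membrane (Na/K-ATPase) and for FXYD proteins, the small membrane proteins that bind and regulate it. The 7 genes were chosen by symbol, out of 38882 genes listed for each library, and are ATP1B1, ATP1B2, ATP1B3, FXYD1, FXYD5, FXYD6 and FXYD7. Of these, 6 were found by matching the Entrez gene identifiers of the count tables to pig gene symbols, and all 6 passed the filter on low counts. FXYD1, which codes for phospholemman, had no matching identifier and has no value here.

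The Na/K-ATPase exports sodium and imports potassium at the cost of ATP, and so keeps the ion gradients that neurons spend when they fire and that glia use to take up glutamate and potassium. A working pump holds an alpha subunit, which carries the catalytic site, and a beta subunit, which is needed to fold the pump and bring it to the membrane. An FXYD protein may bind the pair and tune its affinity for ions. In brain, beta1 (ATP1B1) is common in neurons and beta2 (ATP1B2, also called AMOG, the adhesion molecule on glia) is typical of astrocytes.

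RNA was sequenced from the hippocampi of 24 piglets of a PIC Camborough by PIC 359 cross, all sampled at 14 days of age. Each piglet that was small for gestational age (SGA) was matched to a littermate of the same sex that was appropriate for gestational age (AGA). The pairs received either a control formula (CON) or a formula with hydrolyzed fat (HF), which gave the groups AGA CON, SGA CON, AGA HF and SGA HF with 6 piglets each, from 6 litters per diet. A litter received 1 diet only, so diet was compared between litters and size within them, and the piglets came in 2 cohorts of 12. Total counts ranged from 6017336 to 9284355 per library, with a median of 7346072, and 3 counts corresponded to 0.323 to 0.499 CPM (read counts scaled to library size, with TMM factors where groups are compared). Markers of neurons, astrocytes and oligodendrocytes were detected in every library. In bulk tissue, fewer cells of a type and less RNA per cell cannot be told apart.

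AGA CON replicate 2 and AGA HF replicate 4 stood apart from the other libraries. Their summed CPM over 10 neuron markers was 6569 and 8287, the lowest of the 24 libraries, and their astrocyte marker sums of 16799 and 16977 CPM were the highest. Their microglia marker sums of 237 and 215 CPM were also the highest. From the highest, they ranked 1 and 3 for endothelial and 5 and 2 for oligodendrocyte marker sums. The ranks were 3 and 1 for progenitors, 5 and 1 for meningeal fibroblasts, and 5 and 19 for choroid plexus. The same libraries had the lowest ATP1B1 (213 and 205 CPM) and the lowest FXYD6 (453 and 485 CPM), and the highest FXYD5 (30.4 and 24.4 CPM). AGA CON replicate 2 also had the highest ATP1B2 and FXYD7 of all libraries. Both are AGA libraries, so size estimates averaged over both diets are given with and without them for the beta subunit and FXYD genes. Size estimates within each diet, and those of the interactors, carriers and cell type markers, are given only with both libraries included.

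In the Sscrofa10.2 coordinates of the count tables, the genes lie on 5 chromosomes. ATP1B1 (gene 396898) spans chr4:89530583-89550423 on the minus strand with 5 exons. ATP1B2 (gene 100522212) spans chr12:55241662-55248610 on the minus strand with 7 exons. ATP1B3 (gene 100514493) spans chr13:90496250-90523579 on the plus strand with 6 exons. FXYD6 (gene 102158732) spans chr9:50261910-50297195 on the minus strand with 9 exons. FXYD7 (gene 100623939, chr6:40067196-40071693) and FXYD5 (gene 100624274, chr6:40131800-40145611) both lie on the plus strand of chromosome 6, with 10 exons each. No exon of another listed gene overlaps an exon of these genes, although FXYD7 lies within the span of HPN on the same strand, which had 1 to 11 counts per library.

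ATP1B2 was the most abundant of the 6 genes per length of transcript, at 486 ± 69.3 CPM per kilobase of annotated exon (SD, n = 24). ATP1B1 followed at 348 ± 62.1 and FXYD6, which codes for phosphohippolin, at 328 ± 50.3 CPM per kilobase. ATP1B2 was above ATP1B1 in 23 of 24 libraries, whereas ATP1B1 was above FXYD6 in only 13, so these neighbours did not differ beyond their spread. FXYD7, a brain FXYD protein, stood at 56.2 ± 17.9 and ATP1B3, the beta3 subunit, at 54.2 ± 5.84 CPM per kilobase, and FXYD7 was the higher in 14 of 24 libraries. FXYD5, which codes for dysadherin, was lowest at 13.8 ± 3.75 CPM per kilobase, below ATP1B3 in all 24 libraries. The order depends on the exon lengths of the annotation, which run from 930 bases for FXYD7 to 3103 for ATP1B2. The study gives RNA quality as an average over the samples, and its part in this order was not tested.

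**Figure D1:**
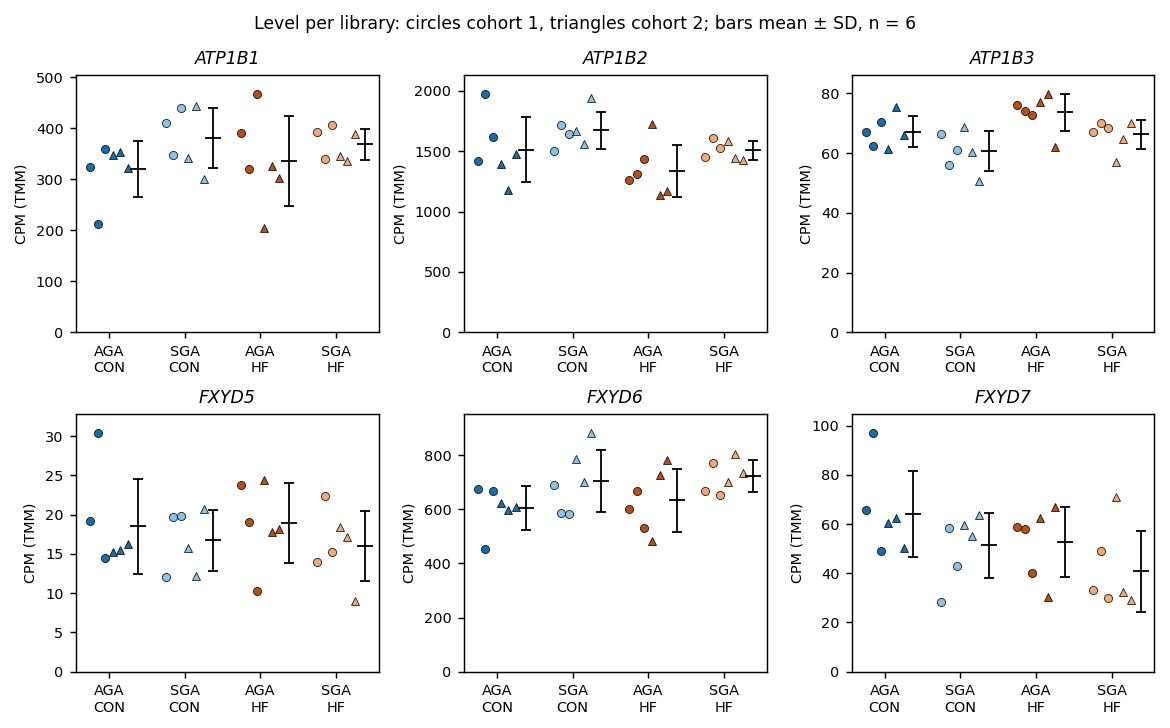
TMM-scaled CPM of each gene in each library, by group, on axes that start at 0. Circles are cohort 1, triangles cohort 2, and bars the group mean ± SD (n = 6). The AGA CON circle at 97.01 CPM in the FXYD7 panel and the one at 213 CPM in the ATP1B1 panel are the same library.

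The first question was whether expression differed with birth size, averaged over both diets. FXYD7 fell in SGA piglets by 0.56 on the log2 scale (SE 0.12), or 0.680-fold, and was the only one of the 6 genes called. ATP1B1, ATP1B2 and FXYD6 had higher estimates in SGA and ATP1B3 and FXYD5 lower ones, none past the threshold. The threshold is a false discovery rate (FDR) p under 0.4, which is lenient, and 0 of the 6 genes had an FDR p under 0.05. By edgeR's quasi-likelihood test with Benjamini-Hochberg adjustment over 7 contrasts, 1 of 6 genes was called for size, against 0.876% of the 16326 genes tested. In that test 4 of the 6 had an unadjusted p under 0.05, against 1692 of the 16326. DESeq2 called 2 of the 6, in a fit that called 3.96% of the 8096 genes it gave an adjusted p. With limma voom 1 of the 6 was called, against 0.588% of all genes.

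FXYD7 ranged from 48.9 to 97.01 CPM in AGA CON with a median of 61.5, and from 28.2 to 63.8 CPM in SGA CON with a median of 56.6. On the HF formula, it ranged from 30.4 to 66.8 CPM in AGA piglets with a median of 58.4, and from 29.3 to 70.9 CPM in SGA piglets with a median of 32.8. The ranges of AGA and SGA libraries overlapped on both diets, and the highest SGA HF library, at 70.9 CPM, was above all AGA HF libraries. Among littermates, the SGA piglet had less FXYD7 in 9 of 12 litters, with a mean difference of -0.37 ± 0.52 on the log2 CPM scale (SD, n = 12 litters). The adjusted p of the size effect was 0.220 (edgeR's quasi-likelihood test). Without AGA CON replicate 2 and AGA HF replicate 4 it was -0.53 on the log2 scale with an adjusted p of 0.287.

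The call for FXYD7 depended on the terms of the fit, and the estimate of -0.56 came from the fit with sex and surrogate variables. The next 2 fits both leave out the surrogate variables, so the part of litter or cohort cannot be told apart from theirs. When each litter was fitted as its own block, without sex or surrogate variables, its size effect was -0.36 (SE 0.13) on the log2 scale, with an adjusted p of 0.465 by edgeR, and the call was lost. With cohort as a term in place of the surrogate variables it was -0.36 with an adjusted p of 0.789. The log2 estimate was -0.62 in cohort 1 alone and -0.15 in cohort 2 alone. These fits called 0 of 15841 and 0 of 15493 genes for size, so no gene could keep a call in them. The call was also lost when litter 1, 2, 9 or 11 was left out, with log2 estimates of -0.45, -0.54, -0.52 and -0.42. Those fits called 0.555%, 0.388%, 0.111% and 0.541% of all genes, in the same order. Without litter 5, in turn, 5 of the 6 genes were called for size, all but ATP1B3, in a fit that called 8.07% of all genes. In cohort 1 the SGA piglet had less FXYD7 in 6 of 6 litters, with a mean littermate difference of -0.60 ± 0.39 (log2, SD). In cohort 2 this held in 3 of 6 litters, with a mean of -0.13 ± 0.54, and litter 11 alone differed by -1.18. The difference between the cohorts' size effects, tested with litters as blocks, was 0.48 (SE 0.22, unadjusted p = 0.048, adjusted p = 0.999 by edgeR), and 0% of genes were called for this difference, including 0 of the 6 genes here. At an unadjusted p under 0.05, FXYD7 was the only one of the 6 in that test, which was added after the cohort values were seen.

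**Figure D2:**
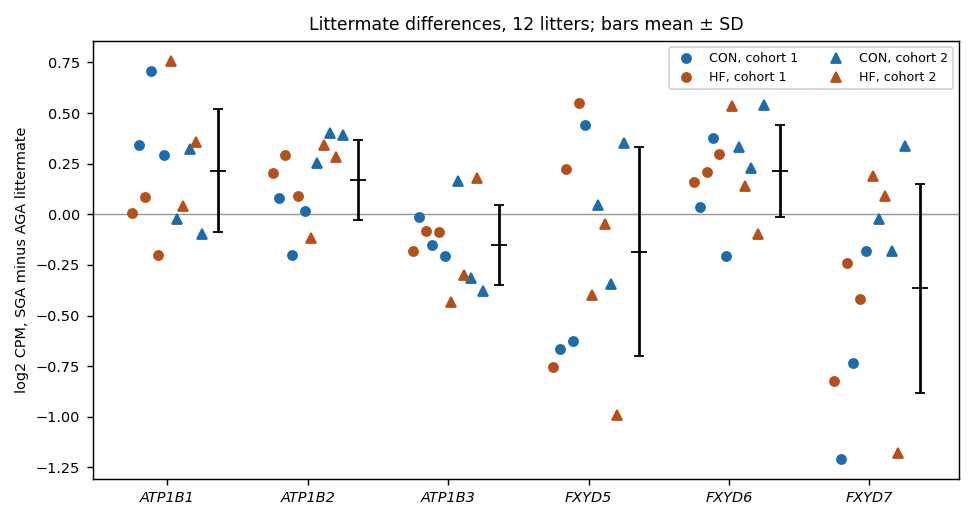
Difference in log2 CPM between the SGA and the AGA littermate for each gene and litter. Blue is CON, orange HF, circles cohort 1, triangles cohort 2, and bars the mean ± SD of 12 litters. The 6 cohort 1 litters lie below 0 for FXYD7, whereas the cohort 2 litters lie on both sides.

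FXYD6 had the reverse pattern of calls. It was higher in the SGA littermate in 10 of 12 litters, with a mean difference of 0.21 ± 0.23 (log2, SD). Under the litter block it rose in SGA by 0.21 (SE 0.065) on the log2 scale, with an adjusted p of 0.396 by edgeR, and was the only one of the 6 genes called in that fit, which called 2.42% of all genes. In the fit on groups, sex and surrogate variables its estimate was 0.13 (SE 0.049) with an adjusted p of 0.615, so that it was not called. FXYD6 ranged from 453 to 674 CPM in AGA CON (median 616) and from 581 to 882 CPM in SGA CON (median 696). On HF it ranged from 485 to 784 CPM in AGA (median 634) and from 655 to 803 CPM in SGA (median 718). The AGA and SGA ranges overlapped on both diets, and the lowest value of each diet was an AGA library that stood apart. Without these 2 libraries the FXYD6 estimate was 0.12 in the group fit (adjusted p = 0.719, edgeR). Under the block without their litters it was 0.16 (SE 0.066, adjusted p = 0.756, edgeR), and the call was lost, in a fit that called 0.198% of all genes. The FXYD6 call was also lost when any 1 of 9 litters (1, 3, 4, 5, 7, 8, 9, 10 and 12) was left out of the block fit. Over the 12 left-out litters the estimate ranged from 0.17 to 0.24. The 9 fits that lost the call called from 0.854% to 4.19% of all genes. These block fits were added after the calls were seen.

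The size estimates of both main beta subunits were positive and similar. ATP1B1 had a log2 estimate of 0.16 (SE 0.060, adjusted p = 0.599, edgeR) and ATP1B2 of 0.17 (SE 0.050, adjusted p = 0.432, edgeR). ATP1B1 ranged from 213 to 359 CPM in AGA CON (median 336), from 301 to 444 in SGA CON (median 379), from 205 to 468 in AGA HF (median 324) and from 336 to 406 in SGA HF (median 368). The SGA HF libraries were the least spread, with an SD of 30.9 CPM against 88.4 in AGA HF. Among littermates ATP1B1 was higher in the SGA piglet in 9 of 12 litters, and the differences of 0.71 in litter 4 and 0.76 in litter 7 on the log2 scale belong to the AGA libraries that stood apart. Without them the ATP1B1 size estimate was 0.11 with an adjusted p of 0.719 (edgeR).

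ATP1B2 ranged from 1183 to 1976.5 CPM in AGA CON (median 1451), from 1505 to 1937 in SGA CON (median 1654), from 1138 to 1721 in AGA HF (median 1286) and from 1427 to 1610 in SGA HF (median 1488). It was higher in the SGA piglet in 10 of 12 litters, and the exceptions were litters 4 and 7, at -0.20 and -0.12 on the log2 scale. Those litters hold the AGA libraries with the highest astrocyte and microglia marker sums and the lowest neuron sums. The part of these sums in the result was not tested. Without these 2 libraries the ATP1B2 size estimate was 0.18 on the log2 scale, with an adjusted p of 0.535 (edgeR).

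ATP1B3 was the least variable gene across litters in cohort 1, where the SGA piglet was lower in 6 of 6 litters by a mean of 0.12 on the log2 scale. Over all litters it was lower in 10 of 12, at -0.15 ± 0.20 (log2, SD), and its estimate was -0.08 (SE 0.054, adjusted p = 0.838, edgeR). It ranged from 50.6 to 68.9 CPM in SGA CON and from 61.4 to 75.4 in AGA CON, and from 56.9 to 70.2 in SGA HF against 61.9 to 79.9 in AGA HF. FXYD5 had the widest littermate spread beside FXYD7, at -0.18 ± 0.52 (log2, SD), with 7 of 12 litters lower in SGA and an adjusted p of 0.739 (edgeR). Its values lay between 9.02 and 30.4 CPM over the 24 libraries. Without the 2 libraries that stood apart, the log2 size estimates were -0.08 for ATP1B3 (adjusted p = 0.844, edgeR) and -0.23 for FXYD5 (adjusted p = 0.809, edgeR).

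**Figure D3:**
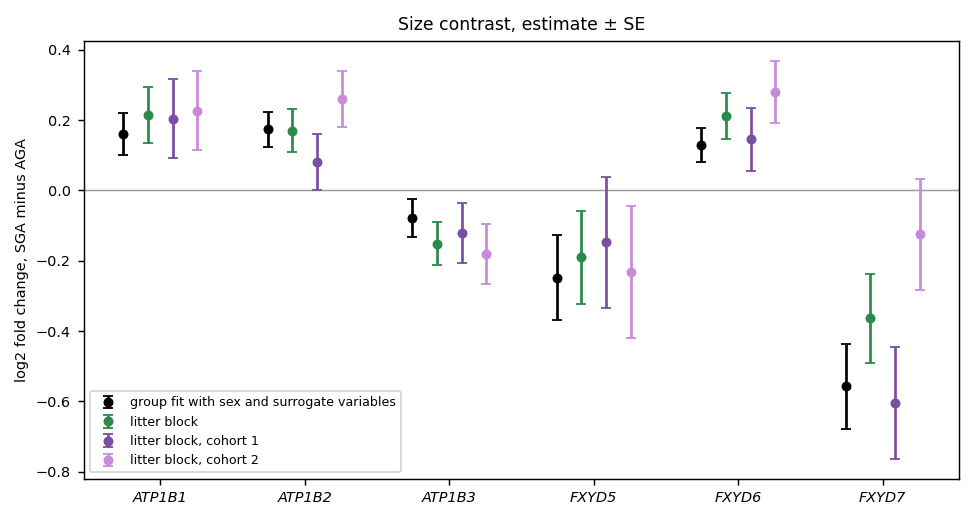
Log2 fold change of SGA minus AGA, estimate ± SE, for each gene in the fit on groups, sex and surrogate variables (black), with litters as blocks (green), and with litters as blocks in each cohort (purple). The FXYD7 estimates run from -0.60 in cohort 1 to -0.13 in cohort 2.

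The ratio of the beta2 to the beta1 subunit was compared between groups as a description, without a test. The CPM of ATP1B2 was 4.51 ± 1.52 times that of ATP1B1 over the 24 libraries (SD), and ranged from 3.06 to 9.28. These are ratios of CPM without correction for exon length, and per kilobase the mean of ATP1B2 was 1.40 times that of ATP1B1. The highest ratios, 9.28 and 8.41, were those of AGA CON replicate 2 and AGA HF replicate 4, and the next, 6.43, was SGA CON replicate 6. The log2 ratio of ATP1B1 to ATP1B2 in the SGA piglet minus that in its AGA littermate averaged 0.05 ± 0.46 over 12 litters (SD) and was positive in 5 of them. Without the litters of both libraries it averaged -0.12 ± 0.25 over 10 litters and was positive in 3, so the sign of the mean rested on those litters. The ratio of FXYD7 to FXYD1 was not computed, because FXYD1 was not matched.

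**Figure D4:**
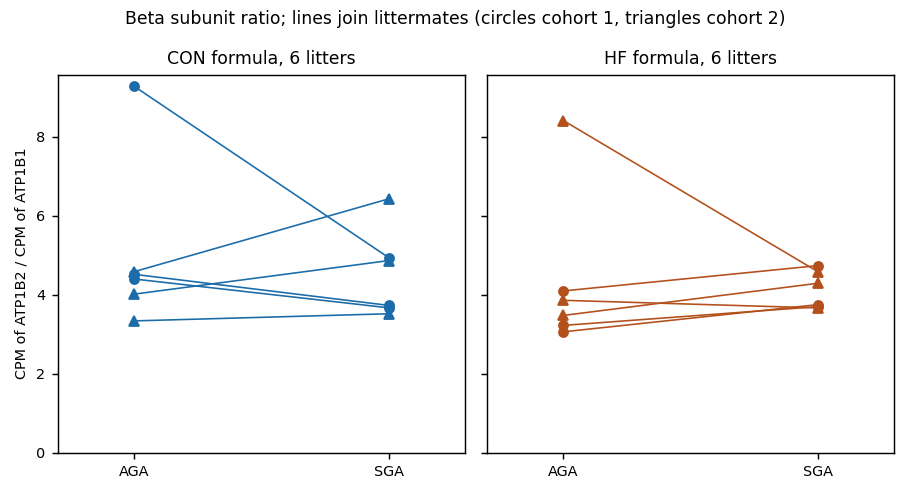
CPM of ATP1B2 divided by CPM of ATP1B1 in AGA and SGA littermates, joined by lines, for 6 litters on CON and 6 on HF. Circles are cohort 1 and triangles cohort 2. The AGA points at 9.28 (CON) and 8.41 (HF) lie above all SGA points.

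Within each diet, SGA piglets were next compared with AGA piglets. On HF, FXYD7 fell by 0.64 on the log2 scale (SE 0.17, adjusted p = 0.383, edgeR), and it was 1 of 6 genes called, against 0.594% of all genes. The call was kept in 5 of 13 alternatives. It was lost under limma voom, without the filter on low counts, with cohort in place of the surrogate variables and with both robust options of the edgeR fit. The litter block lost it as well (-0.40 on the log2 scale, adjusted p = 0.594, edgeR). In each cohort alone 0 genes of any kind were called for this contrast, so no call could be kept there. The FXYD7 call was also lost when any of 7 litters was left out. On CON, 0 of the 6 genes were called by edgeR, against 0.257% of all genes. There 2 of the 6 had an unadjusted p under 0.05, against 1060 of 16326 genes, and on HF 3 had one, against 1324. For the CON contrast limma voom called 0 of the 6 and DESeq2 1, in a fit that called 96 of 6830 genes. The edgeR estimates on CON were 0.26 (SE 0.081) for ATP1B1 and -0.48 (SE 0.16) for FXYD7 on the log2 scale. The size effects on the diets were compared by the interaction, for which 0 of 6 genes were called by edgeR, DESeq2 or limma voom. The edgeR fit called 0.123% of all genes. In it none of the 6 had an unadjusted p under 0.05, against 658 of 16326 genes. The interaction estimate for FXYD7 was -0.16 with an SE of 0.23.

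Diet was compared next, between litters. Over both sizes, 0 of 6 genes were called by edgeR, against 0.294% of all genes, and limma voom called 0. DESeq2 called 1 of the 6, in a fit that called 93 of 4298 genes. ATP1B2 had the largest estimate, -0.15 (SE 0.050) in HF minus CON on the log2 scale, with an unadjusted p of 0.0060 and an adjusted p of 0.542 (edgeR). It was the 1 gene of the 6 with an unadjusted p under 0.05, against 1151 of 16326 genes in that edgeR fit. That fit counts littermates as separate samples, although diet varied only between litters. With littermate counts summed to 12 litters, the ATP1B2 estimate was -0.15 with an unadjusted p of 0.089, and FXYD7 had the largest estimate, -0.31 with an unadjusted p of 0.088. ATP1B3 was then the only one of the 6 with an unadjusted p under 0.05, at 0.13 on the log2 scale, against 608 of 15474 genes. Each of the genes had an adjusted p of 0.999 in that fit (edgeR). In AGA piglets 0 of 6 genes were called, against 0.178% of all genes, and in SGA piglets 0 of 6, against 0.184%, by edgeR. ATP1B2 was again the only gene of the 6 with an unadjusted p under 0.05 in AGA piglets, and none of the 6 had one in SGA piglets. Of 16326 genes, 991 had one in AGA and 866 in SGA piglets. DESeq2 and limma voom called 0 in both.

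Cohort and sex were tested at an FDR p under 0.05 in a fit without surrogate variables. For cohort 0 of 6 genes were called by edgeR, against 1.35% of all genes, and for sex 0 of 6, against 0.165%. DESeq2 and limma voom called 0 of 6 for both. By edgeR none of the 6 had an unadjusted p under 0.05, against 2074 of 16326 genes for cohort and 710 for sex. FXYD6 averaged 629 ± 83.7 CPM in cohort 1 and 703 ± 109 CPM in cohort 2 (SD, n = 12 each). ATP1B1 averaged 378 ± 69.7 CPM in males and 324 ± 42.0 CPM in females (SD, n = 12 each). It was called for sex in 1 of 12 fits with a litter left out, and its log2 estimates of males minus females over the 12 ranged from 0.093 to 0.36. The fit that called it, without litter 7, gave 0.36 with an adjusted p of 0.026 (edgeR). That fit called 76 of 16273 genes for sex, against 27 of 16326 with all litters.

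Of 7 pump interactors and proton pump relatives, 4 were tested and 0 called for size, with 3 of 4 lower in SGA and a median of -0.05 on the log2 scale. NKAIN2, which codes for an interactor of the pump, was called under the litter block at -0.30 (adjusted p = 0.211, edgeR). Of 12 carriers and channels that use or set ion gradients, 1 was called for size and 8 had higher estimates in SGA, with a median of 0.08. This gene was SLC8A2, a sodium and calcium exchanger of neurons, which rose by 0.19 (SE 0.051, adjusted p = 0.383, edgeR) and was higher in the SGA piglet in 12 of 12 litters. The litter block called it again (0.24, adjusted p = 0.283, edgeR). No gene of these lists was called for diet or the interaction.

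Cell type markers were read beside these genes, and their part in the results was not tested. All 8 oligodendrocyte markers had lower estimates in SGA (median -0.19 on the log2 scale), 0 of them called in the group fit, which called 0.876% of all genes, and 4 called under the litter block, which called 2.42%. Their summed CPM ranged from 14177 to 26029 in AGA and from 11926 to 23743 in SGA libraries, and was lower in the SGA piglet in 11 of 12 litters. Of 10 neuron markers, 8 had higher estimates in SGA and 1, the synaptic vesicle gene SYN1, rose (0.18, SE 0.043, adjusted p = 0.326, edgeR), a call that was lost under the litter block (0.23, adjusted p = 0.512, edgeR). The neuron sums ranged from 6569 to 13690 CPM in AGA and from 11350 to 15157 in SGA libraries. The lowest AGA value was that of AGA CON replicate 2, which stood apart. The neuron sum was higher in the SGA piglet in 7 of 12 litters, and SYN1 also in 7 of 12. The astrocyte sums ranged from 11879 to 16977 CPM in AGA and from 12177 to 14658 in SGA libraries, with 0 of 10 markers called. Sums of markers of oligodendrocyte progenitors (589 to 1041 CPM), microglia (73.2 to 237 CPM), endothelium (126 to 268 CPM) and meningeal fibroblasts (129 to 250 CPM) held no gene called for size or diet. The progenitor sum was lower in the SGA piglet in 11 of 12 litters, but OLIG1 alone averaged 650 CPM and the others at most 89.9 CPM. Of the 4 progenitor markers, 2 had higher and 2 lower size estimates in SGA (median -0.0084 on the log2 scale). The choroid plexus sum lay between 10.1 and 155 CPM, with the highest value in SGA CON replicate 1, and PRLR and AQP1 of that list had at most 1 and 2 counts in any library.

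**Figure D5:**
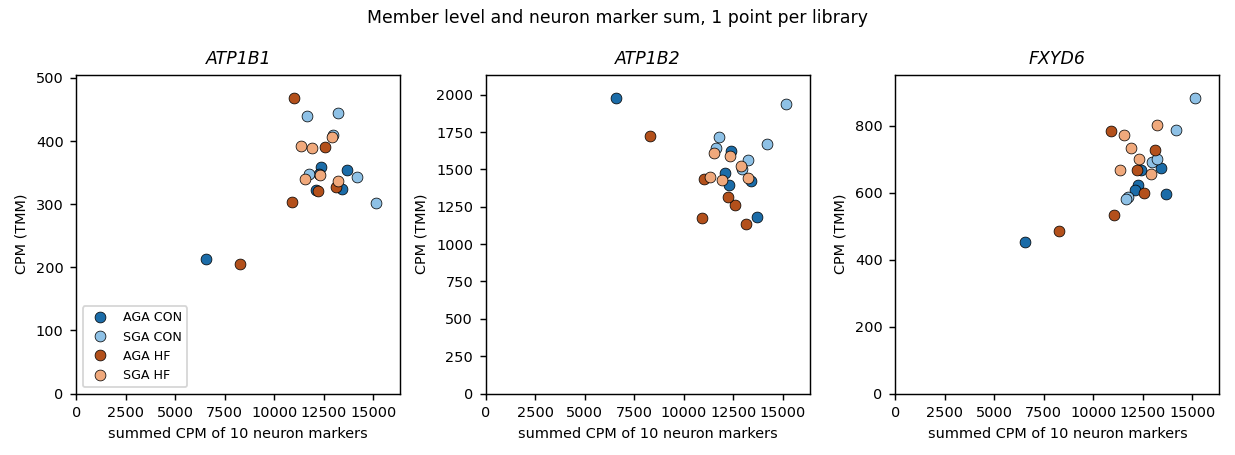
CPM of ATP1B1, ATP1B2 and FXYD6 against the summed CPM of 10 neuron markers, with 1 point per library and axes that start at 0. The points at neuron sums of 6569 and 8287 CPM, an AGA CON and an AGA HF library, are low for ATP1B1 and FXYD6 and high for ATP1B2.

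For each gene the 3 tested genes with the most similar profile were taken by Pearson correlation of log2 CPM over 24 libraries, which share litters and depth, so that r is a description. Both libraries that stood apart are included, and the matches were not taken again without them. Between ATP1B1 and FXYD6, r was 0.27 with these libraries and -0.54 without. Between ATP1B3 and FXYD6, it was -0.25 with them and -0.27 without. ATP1B2 was most like SLC38A3 (r = 0.84), EMX2 (r = 0.84) and ABLIM3 (r = 0.82). FXYD6 was most like CRTAC1 (r = 0.93), CAMK1 (r = 0.92) and KCNF1 (r = 0.91), and these were the closest matches of the 6 genes. Over the 12 littermate differences, CAMK1 and FXYD6 had an r of 0.95. ATP1B1 was most like RASGEF1A (r = 0.87), RHOT1 (r = 0.86) and MORF4L2 (r = 0.85), and ATP1B3 like ARL6IP1 (r = 0.85), TBL1XR1 (r = 0.81) and RAB14 (r = 0.81). FXYD5 was most like DDX39B (r = 0.78), TRIM47 (r = 0.73) and RPL35A (r = 0.73). FXYD7 had the weakest matches, ADRA2B (r = 0.71), CCRL2 (r = 0.69) and C1QTNF12 (r = 0.68), which averaged 0.867 to 2.46 CPM.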

How the data were processed

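Hippocampal polyA RNA of 24 piglets was sequenced on stranded libraries. The authors trimmed reads (Trimmomatic 0.33), aligned them to Sscrofa10.2 (STAR 2.5.2a) and counted reads on exons with featureCounts of Subread 1.5.0, using strand, and deposited whole-number counts per gene without normalization. Groups, litters, sex and cohort came from the labels. The entry without a gene identifier (0.613 to 1.62% of a library) was left out. Identifiers were matched to a RefSeq name table of the Sscrofa11.1 assembly (23036 of 38882). No sequence was printed.

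Counts were TMM-scaled, and genes that reached 1 CPM in 3 or more libraries (16326) entered edgeR 4.0.16 (glmQLFit, glmQLFTest; R 4.3.3) on 4 groups, sex and 5 surrogate variables (sva 3.50.0, from log2 CPM, prior count 2), after the study's terms. FDR p-values covered 7 contrasts together, with a threshold of 0.4, which the study used to choose genes for display and which served for calls here. Alternatives used DESeq2 1.42.0, limma 3.58.1, a litter block (FDR over its 4 contrasts), summed litters, single cohorts and left-out litters. The fits were tested on simulated counts. Littermates pair by litter label, and their deviations from group means correlated at 0.154 on average (0.0143 to 0.329). P-values over piglets of 1 litter treat them as separate samples.

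The genes and lists were chosen with earlier results of these data known. The named genes are the 7 chosen genes, the 3 most similar genes of each, list genes with an FDR p under 0.4 in any of the 7 contrasts, and markers called for size or diet. NKAIN2, OLIG1 and the choroid plexus genes fall outside this rule and were named after their values were seen. Some genes that the rule names are not reported here. Leaving out both libraries that stood apart, the test between cohorts, block fits with litters left out and the glmQLFit options were added after the data were seen.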

Additional observations from a re-analysis of the deposited data

Results flagged for a closer look

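Within groups of 6 libraries, a value was singled out when its gap to the nearest other value exceeded Dixon's 95% critical share of the group's range, which chance exceeds in about 1 of 20 groups. Over the 24 groups of values (6 genes in 4 groups), 4 values met it, and all 4 were those of AGA CON replicate 2. They were ATP1B1 at 213 CPM and FXYD6 at 453 CPM, the lowest of the group, and FXYD5 at 30.4 CPM and FXYD7 at 97.01 CPM, the highest. These values come from 1 library and are not independent of each other. This library also had the lowest neuron marker sum (6569 CPM) and the highest share of reads on the entry without an identifier (1.62%), and the part of either was not tested.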

How the results depend on the processing

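Size estimates averaged over both diets kept their sign for the 6 genes in all alternatives run, whereas some within a diet turned in a single cohort, and calls depended on the model. FXYD7 kept its size call in 9 of 13 alternatives other than leaving out a litter, with log2 estimates from -0.62 to -0.15 over those 13, and from -0.60 to -0.42 over the 12 left-out litters. Among the 13, the fits on a single cohort called 0 genes for size, so no call could be kept in them. The threshold of 0.4 makes calls of single genes uncertain, and 6 litters per diet limit every comparison. With litter as the replicate block, FXYD7 was not called for size (log2 -0.36) or on HF (-0.40), and FXYD6 was called (0.21), and the block changed no other call of the 6 genes. For size, 5 of the 6 had an unadjusted p under 0.05 in that edgeR fit, against 1991 of 16326 genes. With a litter left out of the block fit, FXYD6 kept its call in 3 of 12 fits, and FXYD7 was called without litter 8 or 12, ATP1B1 without 5 or 8 and ATP1B3 without 8. The block fits without litter 5, 8 and 12 called 4.01%, 4.19% and 1.29% of all genes. The cause of each change was not tested. 

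With DESeq2 there were all-gene counts of 321 for size, 93 for diet, 66 for the interaction, 96 for SGA CON against AGA CON, 185 for SGA HF against AGA HF, 57 for AGA HF against AGA CON, 88 for SGA HF against SGA CON and 390 for cohort, and counts among the 6 genes of 2 for size, 1 for diet, 1 for SGA CON against AGA CON and 2 for SGA HF against AGA HF. With cohort in place of the surrogate variables there were all-gene counts of 62 for size, 9 for diet, 5 for the interaction, 22 for SGA CON against AGA CON, 15 for SGA HF against AGA HF, 2 for AGA HF against AGA CON and 5 for SGA HF against SGA CON, and counts among the 6 genes of 0 for size and 0 for SGA HF against AGA HF. With the FDR taken in each contrast alone there were all-gene counts of 1210 for size, 9 for diet, 0 for the interaction, 14 for SGA CON against AGA CON, 367 for SGA HF against AGA HF, 0 for AGA HF against AGA CON and 9 for SGA HF against SGA CON, and counts among the 6 genes of 4 for size and 2 for SGA HF against AGA HF. With cohort 1 alone there were all-gene counts of 0 for size, 1 for diet, 0 for the interaction, 0 for SGA CON against AGA CON, 0 for SGA HF against AGA HF, 0 for AGA HF against AGA CON and 1 for SGA HF against SGA CON, and counts among the 6 genes of 0 for size and 0 for SGA HF against AGA HF. With cohort 2 alone there were all-gene counts of 0 for size, 1 for diet, 0 for the interaction, 0 for SGA CON against AGA CON, 0 for SGA HF against AGA HF, 0 for AGA HF against AGA CON and 1 for SGA HF against SGA CON, and counts among the 6 genes of 0 for size and 0 for SGA HF against AGA HF. With the robust option of glmQLFit there were all-gene counts of 157 (0.962%) for size and 107 for SGA HF against AGA HF, and counts among the 6 genes of 2 and 0. With the robust option with the newer glmQLFit method there were all-gene counts of 181 (1.11%) for size and 123 for SGA HF against AGA HF, and counts among the 6 genes of 2 and 0. With litter as the replicate block there were all-gene counts of 395 for size, 42 for the interaction, 192 for SGA CON against AGA CON and 136 for SGA HF against AGA HF, and counts among the 6 genes of 0 for SGA HF against AGA HF. With AGA CON replicate 2 and AGA HF replicate 4 left out there were all-gene counts of 25 for size, 12 for diet, 0 for the interaction, 5 for SGA CON against AGA CON, 9 for SGA HF against AGA HF, 5 for AGA HF against AGA CON and 5 for SGA HF against SGA CON. With littermate counts summed to 12 litters there were all-gene counts of 1 for diet, 63 for cohort and 17 for sex. With limma voom there were all-gene counts of 19 for diet, 4 for the interaction, 18 for SGA CON against AGA CON, 54 for SGA HF against AGA HF, 9 for AGA HF against AGA CON and 10 for SGA HF against SGA CON, and counts among the 6 genes of 0 for SGA HF against AGA HF. With no filter on low counts there were all-gene counts of 8 for the interaction, 27 for SGA CON against AGA CON, 70 for SGA HF against AGA HF, 12 for AGA HF against AGA CON, 742 for cohort and 206 for sex, and counts among the 6 genes of 0 for SGA HF against AGA HF. With the newer glmQLFit method there were all-gene counts of 31 for the interaction and 68 for SGA CON against AGA CON. With DESeq2 size factors there were all-gene counts of 19 for AGA HF against AGA CON. With each litter left out in turn, the all-gene counts ranged from 18 to 1311 for size, 6 to 757 for diet, 2 to 352 for interaction, 8 to 458 for SGA CON against AGA CON, 5 to 1147 for SGA HF against AGA HF, 6 to 764 for AGA HF against AGA CON, 5 to 400 for SGA HF against SGA CON, 63 to 309 for cohort and 12 to 76 for sex. The counts among the 6 genes ranged from 0 to 5 for size, 0 to 1 for diet, 0 to 1 for SGA CON against AGA CON, 0 to 3 for SGA HF against AGA HF and 0 to 1 for sex, and stayed at 0 for the other contrasts.

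With littermate counts summed the sign turned for ATP1B1 (diet, 0.017) and FXYD5 (diet, -0.0041). With limma voom the sign turned for ATP1B1 (diet, 0.0012). With cohort in place of the surrogate variables the sign turned for ATP1B1 (diet, 0.013), ATP1B3 (the interaction, -0.0043), FXYD5 (the interaction, -0.11) and FXYD6 (the interaction, -0.011). In cohort 1 alone the sign turned for ATP1B1 (diet, 0.17), FXYD5 (diet, -0.13), ATP1B3 (the interaction, -0.0023), FXYD7 (the interaction, 0.18), ATP1B2 (size on CON, -0.041) and ATP1B1 (size on HF, -0.048). Without the 2 libraries that stood apart the sign turned for FXYD7 (diet, 0.0046). In cohort 2 alone the sign turned for ATP1B1 (the interaction, 0.25), ATP1B2 (the interaction, -0.22), ATP1B3 (the interaction, -0.036), FXYD5 (the interaction, -0.51), FXYD6 (the interaction, -0.20), FXYD5 (size on CON, 0.045) and FXYD7 (size on CON, 0.051). Under the replicate block the sign turned for ATP1B3 (the interaction, -0.00077), FXYD5 (the interaction, -0.11) and FXYD6 (the interaction, -0.011). Signs turned with a litter left out for ATP1B1 (diet, -0.095 to 0.039), FXYD7 (diet, -0.18 to 0.035), ATP1B2 (the interaction, -0.024 to 0.13), ATP1B3 (the interaction, -0.051 to 0.083), FXYD5 (the interaction, -0.080 to 0.21) and FXYD6 (the interaction, -0.00020 to 0.18). These are log2 estimates, and none of them passed the threshold. Mean littermate differences and the littermate log2 ratio of ATP1B1 to ATP1B2 moved by less than 1 SD in all alternatives run.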
